A study of Macaca mulatta with 449 samples.

Results

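The 10 genes described here, MFAP5, BEST3, DAZL, EHF, NEUROG2, HSF2BP, NPPA, GALNT5, PROX1 and GRP, are 10 of the 30807 genes in the count table of a rhesus macaque brain atlas, and were put forward as genes enriched in the hippocampus. They were chosen by their expression levels in the hippocampus relative to other parts of the brain in these samples, so that contrast is described below without a test. RNA was sequenced after removal of ribosomal RNA, and the count table holds 51 sub-regions of 8 healthy macaques, 1 sample of each sub-region per animal. The animals were 2 males and 2 females aged 3.2 to 5 years (young: Rhesus 4, 7, 8 and 10) and 2 males and 2 females aged 9.8 to 10 years (mid-aged: Rhesus 2, 3, 6 and 11). The labels name no treatment. The hippocampus (HIP) was sampled as the dentate gyrus (DG), CA1 and CA3, 8 samples each. Samples set beside it were the entorhinal and perirhinal cortex (PA), the hippocampal or parahippocampal gyrus (HG), the amygdala (AMY) and the other sub-regions, which fell into 16 region groups with 31 sub-regions in the cerebral cortex, HG among them. In bulk tissue, fewer cells of a type and less RNA per cell cannot be told apart.

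The hippocampus stores new episodic and spatial memories and passes signals from the entorhinal cortex through the granule cells of DG to the pyramidal neurons of CA3 and CA1. DG is one of the few places where neurons can be added after birth. The 10 genes do not form a pathway. NEUROG2, PROX1 and EHF encode transcription factors, GRP and NPPA encode secreted peptides, BEST3 an anion channel of the bestrophin family, MFAP5 a protein of extracellular microfibrils and GALNT5 an enzyme that starts O-linked glycosylation in the Golgi. DAZL, an RNA-binding protein, and HSF2BP, a partner of BRCA2 in meiotic recombination, are best known from germ cells.

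Since the genes were chosen by these levels, the ranks below describe the label and do not test it. HIP ranked first for 7 of the 10 genes and lower for the other 3. MFAP5, BEST3, DAZL, EHF, NEUROG2, HSF2BP and GRP had their highest mean of the 16 region groups in the hippocampus. NPPA was higher in the olfactory bulb (OB), PROX1 was higher in the corpus callosum (CC), and GALNT5 ranked 8 of 16, with its highest mean in the pituitary (PIT). Levels are counts per 1000000 counted reads (CPM) with TMM-scaled library sizes, given as mean ± SD over 8 animals. They are not scaled by gene length, so they are compared between samples and not between genes. Hippocampal samples had 8143457 to 13795178 counted reads, and 3 counts, used as the floor of detection, came to 0.217 to 0.368 CPM at these depths. Samples elsewhere had 7784678 to 31083490. The floor covers counting error only, while the SDs also hold the differences between animals.

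**Figure D1:**
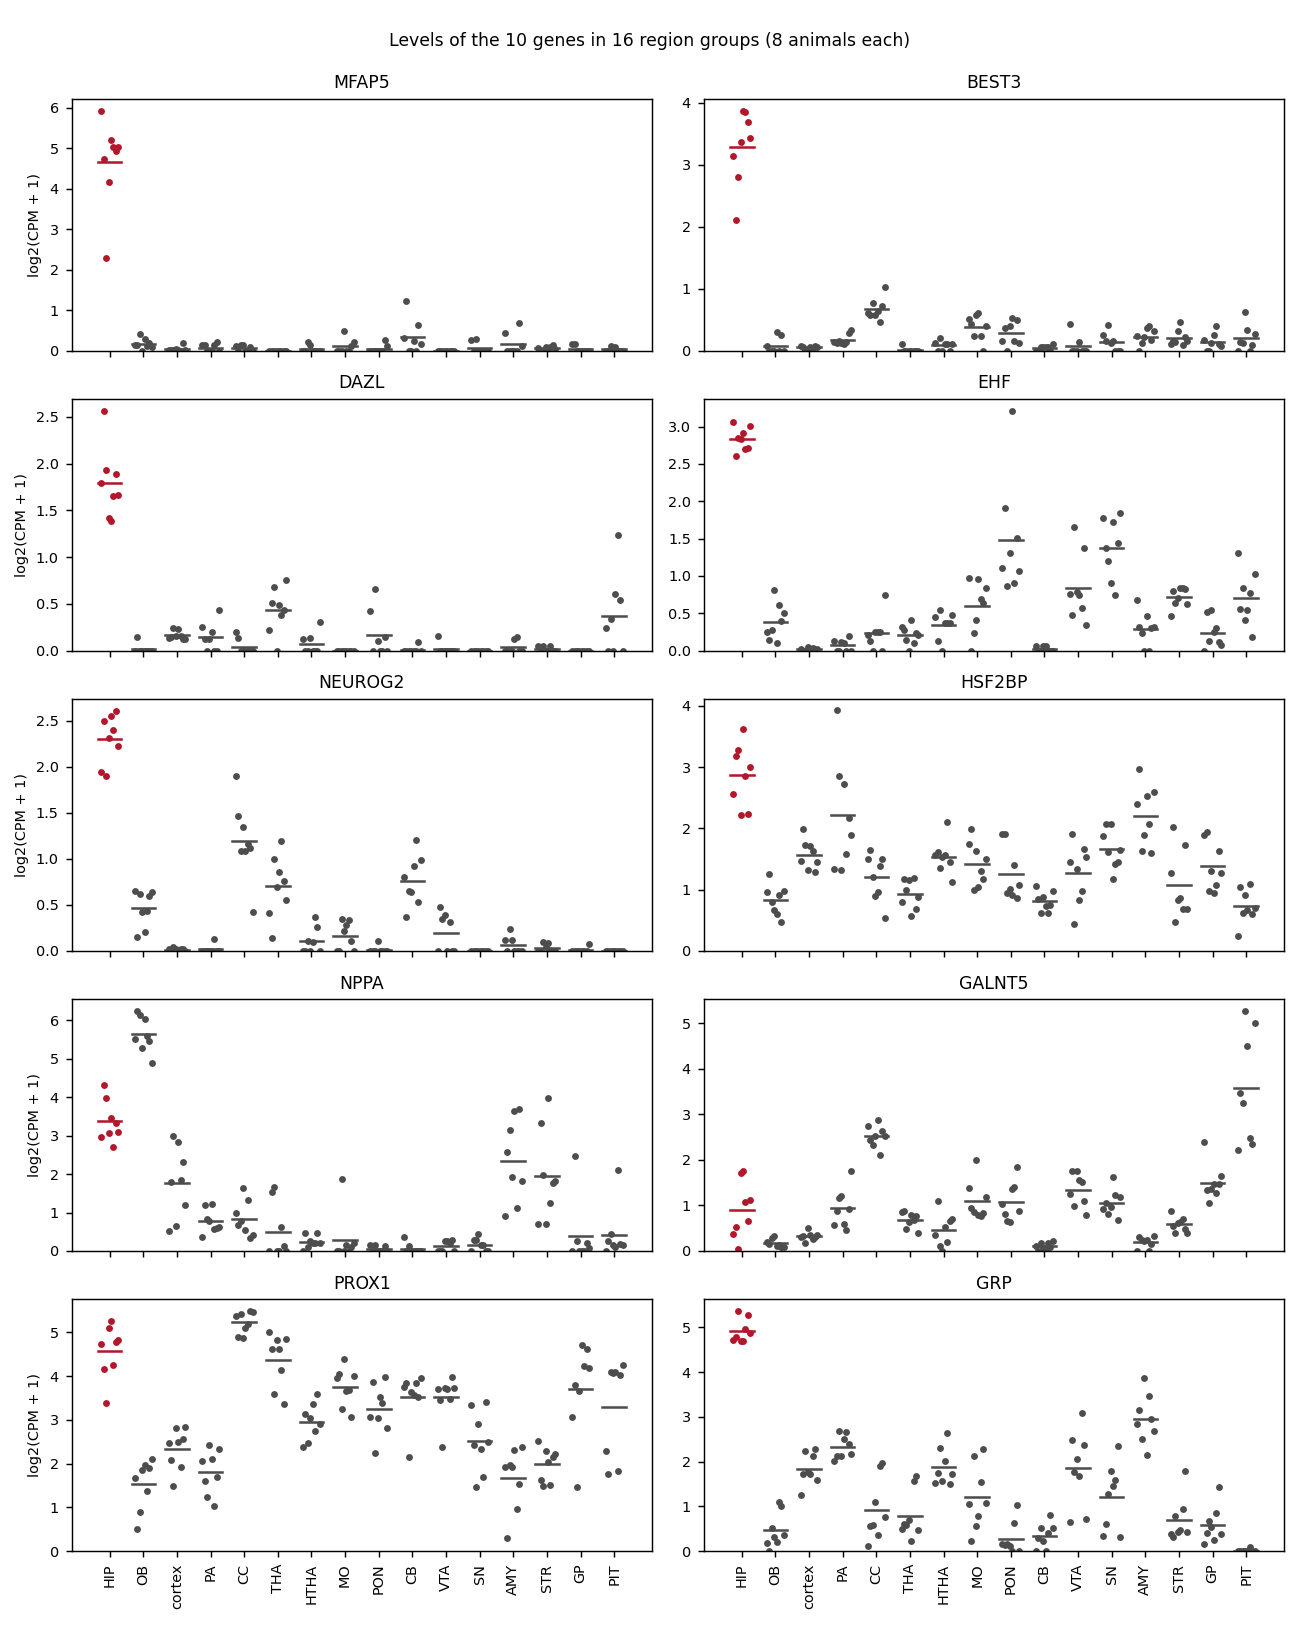
Each panel shows 1 gene, with log2(CPM + 1) on the vertical axis and the 16 region groups on the horizontal axis, the hippocampus (HIP) in red. Each point is 1 animal (counts of all sub-regions of the group summed within the animal) and the line is the mean of 8 animals. HIP has the highest mean for 7 genes, while NPPA is highest in OB, PROX1 in CC and GALNT5 in PIT.

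Before the sub-fields are compared, the dissection was checked against its markers. The summed level of 8 CA1 pyramidal neuron markers ran from 80.0 to 280 CPM (median 182) in CA1 and from 83.6 to 313 CPM (median 191) in CA3, so this list did not set CA1 apart from CA3. In DG it was 61.8 to 115 CPM. Its medians in PA (452 CPM) and HG (438 CPM) were above that of CA1, so the list does not mark CA1 alone. SPINK8, one of the 8, was as good as absent from all 3 sub-fields, with no count in any DG or CA3 sample and at most 0.104 CPM in CA1. The 11 measured markers of dentate gyrus granule cells, PROX1 among them, summed to 721 to 1347 CPM in DG, against 644 to 885 in CA1 and 614 to 913 in CA3. The 9 measured CA2 and CA3 markers had a median sum of 668 CPM in CA3, 541 in CA1 and 422 in DG, with overlapping ranges. The DG sample of Rhesus 2 stood apart. It had the lowest granule cell sum (721 CPM, the next being 973) and the highest CA1 marker sum (115 CPM) of the 8 DG samples. The CA3 sample of Rhesus 6 had the lowest granule cell sum (614 CPM) and the highest oligodendrocyte sum (9773 CPM) of the 8 CA3 samples.

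NEUROG2 (ENSMMUG00000014078) is a proneural basic helix-loop-helix factor that starts neuronal differentiation in the embryonic forebrain. It measured 4.01 ± 0.886 CPM in HIP and was highest there in 8 of 8 animals. The next region group was CC with 1.37 ± 0.681 CPM. In CA3 its lowest, median and highest samples were 2.97, 5.38 and 6.52 CPM, in DG 2.63, 3.96 and 5.48 CPM, and in CA1 1.71, 3.05 and 4.98 CPM. CA3 was the highest of the 3 sub-fields in 7 of 8 animals, although the groups overlapped and neighbours in this order differed by at most 0.795 times the larger SD. Of 384 samples outside the hippocampus, 346 had at most 3 counts of NEUROG2.

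PROX1 (ENSMMUG00000011914) is a homeodomain factor that marks DG granule cells throughout life and also some interneurons and immature oligodendrocytes. In DG its samples ran from 13.6 to 67.1 CPM with a median of 32.4, a mean of 38 ± 20.3. CC followed closely with 36.9 ± 6.33 CPM (28.4 to 43.9), and the gap between DG and CC was 0.0574 times the larger of the 2 SDs. The thalamus (THA, 21.3 ± 8.10) lay 1.92 times the larger SD below CC and was followed by CA3 (18 ± 8.14) and CA1 (16.5 ± 8.25), with gaps of 0.41 and 0.18 times the larger SD. PROX1 was thus as high in the white matter of CC as in DG within the spread between animals, and the whole hippocampus (24.3 ± 9.07 CPM) was the highest region group in 2 of 8 animals.

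EHF (ENSMMUG00000005927) belongs to the ETS transcription factors and is otherwise known from epithelial cells. It measured 10.1 ± 1.83 CPM in DG, 4.43 ± 2.06 in CA1 and 3.80 ± 1.62 in CA3, and HIP was the highest region group in 7 of 8 animals. Its samples in DG ran from 7.73 to 12.9 CPM (median 10.0), in CA1 from 0.999 to 8.22 (median 4.39) and in CA3 from 0.763 to 5.81 (median 3.80). DG and CA3 did not overlap, and the gap from DG to CA1 was 2.76 times the larger SD. The pons (PON) came next with 2.28 ± 2.49 CPM, where 1 sample, Rhesus 7, had 8.23 CPM and the other 7 had at most 2.77. The summed cortex was at 0.0143 ± 0.0128 CPM.

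GRP (ENSMMUG00000007584), gastrin-releasing peptide, is a bombesin-like neuropeptide found in subsets of excitatory neurons. It measured 47.5 ± 11.2 CPM in DG (26.6 to 61.7, median 47.8), 20.4 ± 10.1 in CA3 (4.38 to 39.4, median 20.0) and 20.4 ± 6.05 in CA1 (8.29 to 27, median 19.8). The lowest DG value, 26.6 CPM in Rhesus 2, lay within the range of the other sub-fields, and the other 7 were at 41.1 CPM or above. Outside the hippocampus the order continued with the anterior cingulate gyrus (ACG, 8.66 ± 2.69), the temporal polar gyrus (TPG, 7.48 ± 2.86) and AMY (7.24 ± 3.24), whose neighbours in the order differed by less than 1 SD. HIP was the highest group in 8 of 8 animals, and it held 44.3% of all GRP counts in the table.

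NPPA (ENSMMUG00000007834) encodes atrial natriuretic peptide. OB had 51 ± 16.2 CPM (28.5 to 74.3), above CA3 with 18.1 ± 7.18 CPM (9.97 to 29.3, median 16.8). CA1 was at 7.10 ± 5.89 CPM (2.36 to 19.6, median 4.69) and DG at 5.38 ± 3.98 (1.26 to 13, median 4.74). The gap from OB to CA3 was 2.03 times the larger SD. The caudate nucleus (CN, 8.34 ± 11.3) came after CA3, with a gap of 0.86 times the larger SD, and CA1 ranked 4 and DG 11 of the 51 sub-regions.

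BEST3 (ENSMMUG00000004786) had 17.2 ± 6.86 CPM in DG (6.79 to 25, median 20.2), 6.40 ± 4.2 in CA3 (1.14 to 14.2, median 5.87) and 4.31 ± 2.29 in CA1 (0.699 to 6.68, median 5.21). Each DG sample exceeded each CA1 sample, and DG was the highest sub-field in 8 of 8 animals. CC, the next sub-region, had 0.603 ± 0.199 CPM, and 357 of the 384 samples outside the hippocampus had at most 3 counts. Of all BEST3 counts, 88.4% came from the 24 hippocampal samples.

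MFAP5 (ENSMMUG00000010747) had the largest share of its counts in the hippocampus of the 10 genes, and it varied widely between animals there. It had 33.3 ± 20.6 CPM in CA1 (10.3 to 71.7, median 30.3), 28.1 ± 18.7 in CA3 (0.193 to 46.7, median 37.9) and 27.4 ± 18.6 in DG (1.23 to 64.0, median 29.6). No sub-field was set apart, and the neighbours in this order differed by at most 0.253 times the larger SD. The low ends came from Rhesus 4, with 2 counts in CA3 and 15 in DG but 106 counts in CA1. Summed fibroblast markers, which can go with a microfibril gene, were 44.1 CPM in that CA3 sample and 43 to 95.9 CPM over the 8 CA3 samples. Outside the hippocampus 374 of 384 samples had at most 3 counts, the highest mean was 0.495 ± 0.735 CPM in the cerebellar cortex (CBC), and HIP held 97.3% of all counts.

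GALNT5 (ENSMMUG00000017717) was low in the hippocampus. It had 1.85 ± 1.70 CPM in DG (0.0821 to 4.57, median 1.33), 0.603 ± 0.460 in CA1 (0 to 1.22) and 0.635 ± 0.721 in CA3 (0 to 2.03). PIT had 15.2 ± 13.3 CPM, CC 4.82 ± 0.965 and the globus pallidus (GP) 1.94 ± 0.996. In RefSeq the gene overlaps ERMN, an oligodendrocyte gene, and the strand option of the authors' counting is not given in the sources used here, so reads of the pair may not be fully separated. ERMN was at 1561 ± 246 CPM in CC, 21.7 ± 7.64 in DG and 0.441 ± 0.261 in PIT. The part of shared reads in the GALNT5 counts was not tested. EHF and PROX1 also overlap 1 RefSeq gene each (LOC144334270 and LOC106993567), and shared reads were not tested there either.

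DAZL (ENSMMUG00000011361) had 4.07 ± 1.81 CPM in DG (2.43 to 8.22, median 3.47), 2.85 ± 2.02 in CA3 (0.572 to 6.52, median 2.64) and 0.857 ± 0.412 in CA1 (0.263 to 1.46, median 0.796). DG and CA1 did not overlap, while DG and CA3 did. The next sub-region, THA, had 0.366 ± 0.221 CPM, and 356 of 384 samples outside the hippocampus had at most 3 counts. Reads of near-identical DAZ copies, which could be counted on DAZL, were not analysed here.

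HSF2BP (ENSMMUG00000022791) was measured throughout the brain, with more than 3 counts in 376 of 384 samples outside the hippocampus. In CA1 it had 13 ± 6.55 CPM (6.23 to 23.2, median 10.7), in CA3 3.84 ± 1.5 (1.64 to 6.18, median 4.07) and in DG 3.18 ± 1.4 (1.57 to 4.76, median 3.18). Each CA1 sample exceeded each sample of the other sub-fields. Between CA1 and CA3 in the order lay ACG (5.25 ± 1.56), PA (4.66 ± 4.25) and AMY (3.86 ± 1.67). The gap from CA1 to ACG was larger than the SD of either. From ACG down to CA3 the gaps between neighbours were at most 0.188 times the larger SD. HG, with 3.84 ± 1.42 CPM, was level with CA3. The whole hippocampus had 6.70 ± 2.65 CPM, and 184 of the 384 samples elsewhere exceeded the lowest hippocampal sample.

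**Figure D2:**
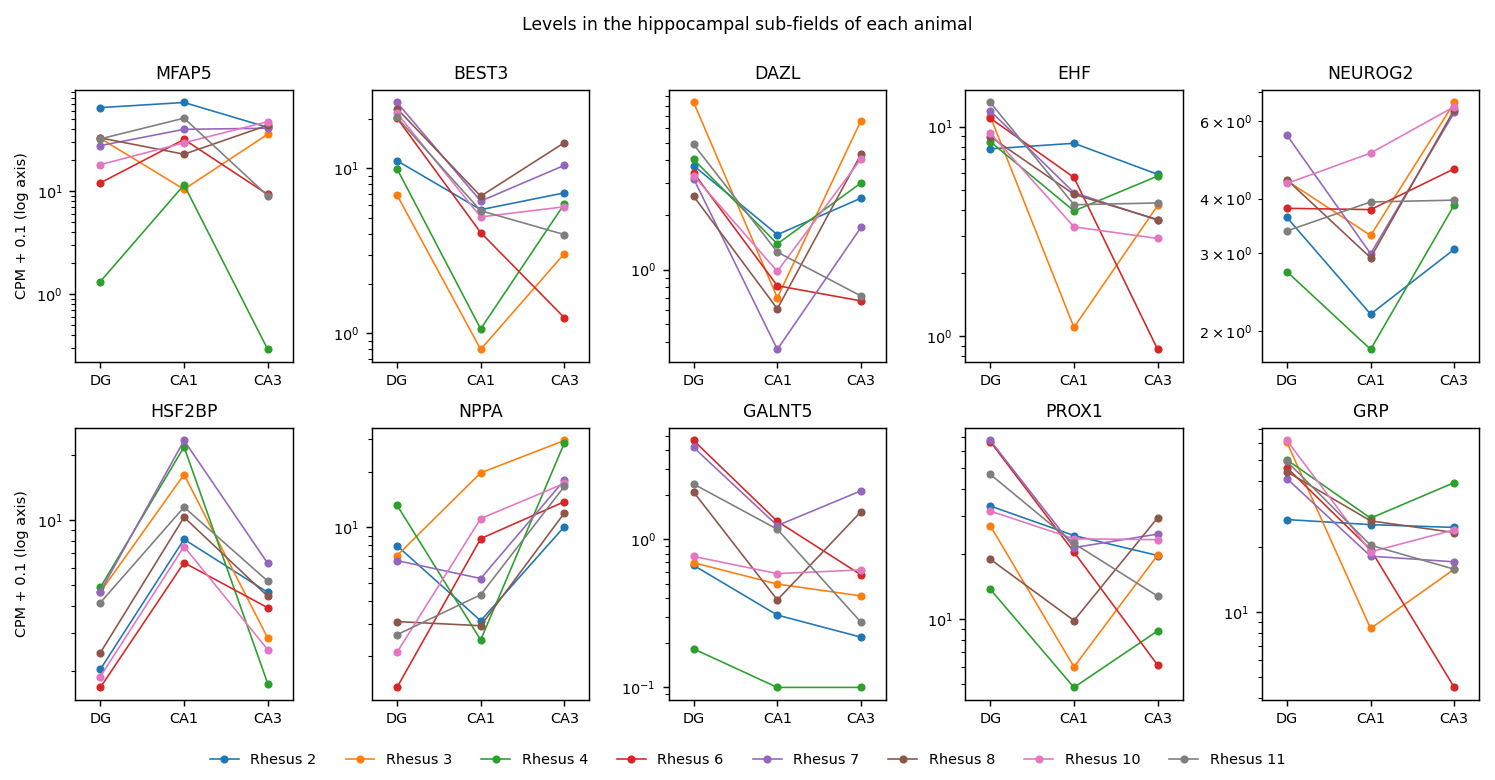
Each panel shows 1 gene, with CPM + 0.1 on a logarithmic vertical axis and the 3 hippocampal sub-fields on the horizontal axis, and each line joins the samples of 1 animal. BEST3, DAZL, GALNT5, PROX1 and GRP fall from DG to CA1 in 8 of 8 animals. HSF2BP peaks in CA1 and NPPA in CA3 in 8 of 8 animals, and the MFAP5 line of Rhesus 4 lies far below the other 7 in DG and CA3.

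The differences between sub-fields were then tested within animals. The genes were put forward for the hippocampus as a whole, but they were chosen with results of these samples known, so the calls below are not independent of that choice. A gene was called at FDR < 0.05 and more than a 2-fold difference. All 10 genes passed the filter on low counts in these 24 samples. GALNT5 passed on 9 samples (4 in DG, 3 in CA1 and 2 in CA3) and DAZL on 17 (8 in DG, 3 in CA1 and 6 in CA3). Between DG and CA1, 7 of the 10 genes were called, against 523 of 14796 genes tested (3.53%), and 6 of the 7 were higher in DG (1.04% of the genes tested) and 1 lower (2.49%). Between DG and CA3, 5 were called, against 447 of 14796 (3.02%), 4 of them higher in DG (0.798%) and 1 lower (2.22%). Between CA1 and CA3, 1 was called, against 3 of 14796 (0.0203%). The median log2 fold change over all genes tested lay between -0.00875 and -0.00241 in the 3 contrasts.

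BEST3, EHF, GALNT5 and GRP were higher in DG than in both other sub-fields and met the rule for DG genes (a difference over the 3 sub-fields and over 2-fold above each other one), as 71 genes did (0.48%). The log2 fold changes of BEST3 were 2.08 (SE 0.29, FDR 8.86e-05) against CA1 and 1.49 (SE 0.29, FDR 0.000867) against CA3. Those of EHF were 1.26 (SE 0.29, FDR 0.00264) and 1.47 (SE 0.29, FDR 0.00109). GRP had 1.27 (SE 0.26, FDR 0.00119) and 1.33 (SE 0.26, FDR 0.000924), and GALNT5 had 1.54 (SE 0.37, FDR 0.00392) and 1.51 (SE 0.37, FDR 0.00492). BEST3, GALNT5 and GRP were higher in DG than in either other sub-field in 8 of 8 animals. EHF was so in 7, the exception being Rhesus 2 with 7.73 CPM in DG and 8.22 in CA1. Without Rhesus 7 GALNT5 did not pass the filter, and without the animal block its FDR was 0.101 and 0.119.

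PROX1 and DAZL were called between DG and CA1 but not between DG and CA3. PROX1 was higher in DG than in CA1 by 1.24 (log2, SE 0.30, FDR 0.0046) and in 8 of 8 animals. Against CA3 the log2 fold change was 0.98 (SE 0.31, FDR 0.021), just under the fold required, and it was over that fold without Rhesus 2, 3, 4, 8 or 10, with 0.69 to 1.24 over the 8 fits that each left out 1 animal. DAZL was higher in DG than in CA1 by 2.24 (log2, SE 0.37, FDR 0.000304), again in 8 of 8 animals, and its difference from CA3 was 0.62 (SE 0.33, FDR 0.154).

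HSF2BP was the gene of the 10 that met the rule for CA1, as 23 genes did (0.155%). It was lower in DG than in CA1, with a log2 fold change of -1.99 (SE 0.24, FDR 2.35e-05), and higher in CA1 than in CA3 by 1.65 (SE 0.24, FDR 0.00745). CA1 was its highest sub-field in 8 of 8 animals. Without Rhesus 7 the CA1 and CA3 difference was 1.59 with an FDR of 0.0612, and no gene was called between the 2 sub-fields. NPPA met the rule for CA3, as 7 genes did (0.0473%). Its log2 fold change between DG and CA3 was -1.81 (SE 0.38, FDR 0.00156) and between CA1 and CA3 -1.42 (SE 0.37, FDR 0.205). CA3 was highest in 8 of 8 animals.

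MFAP5 and NEUROG2 were called in none of the 3 contrasts. The differences of MFAP5 were -0.54 (SE 0.42) between DG and CA1, -0.05 (SE 0.42) between DG and CA3 and 0.50 (SE 0.43) between CA1 and CA3. NEUROG2 differed over the 3 sub-fields as a whole (FDR 0.00607), with -0.69 (SE 0.15, FDR 0.119) between CA1 and CA3, 0.34 (SE 0.16, FDR 0.107) between DG and CA1 and -0.35 (SE 0.15, FDR 0.0795) between DG and CA3. DAZL, at -1.62 (SE 0.39, FDR 0.163) between CA1 and CA3, was called in that contrast by DESeq2 (-1.60, adjusted p 0.0125) and without Rhesus 11 (-1.89, FDR 0.0395), but not otherwise.

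**Figure D3:**
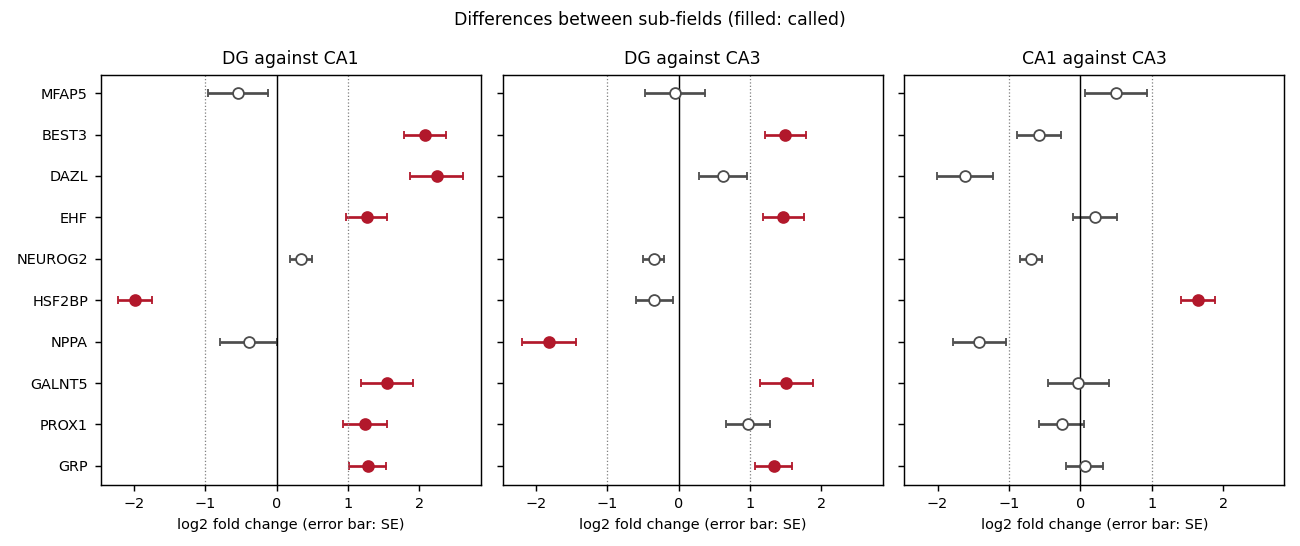
Log2 fold change (horizontal axis, with its SE as the error bar) of the 10 genes (vertical axis) for DG against CA1, DG against CA3 and CA1 against CA3, from the fit with the animal as a block. Filled red points were called, the dotted lines mark a 2-fold difference, and positive values are higher in the sub-field named first. Called genes number 7, 5 and 1 in the 3 panels.

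Other cell types moved with these contrasts. Of 7 oligodendrocyte markers tested, 6 were lower in DG than in CA1 and 7 lower than in CA3, and their sum was 1562 to 3151 CPM in DG, 3464 to 8861 in CA1 and 4100 to 9773 in CA3. The highest sums of CA1 and CA3 were in Rhesus 3 and Rhesus 6. These are the samples with the lowest CA1 values of MFAP5, BEST3, EHF and GRP and the lowest CA3 values of BEST3, DAZL, EHF, PROX1 and GRP. Of 5 choroid plexus markers tested, FOLR1, CLIC6 and OTX2 were higher in DG than in CA1, by 2.52 (SE 0.50), 2.87 (SE 0.53) and 1.69 (SE 0.47) on the log2 scale, and none was called between DG and CA3. The sum of 8 choroid plexus markers was 12.2 to 71.5 CPM in DG, 9.11 to 29.7 in CA1 and 14 to 87.0 in CA3. The part of these cells in the differences above was not tested. Leaving out 1 animal cannot test that part, since all the oligodendrocyte sums of CA1 and CA3 lay above those of DG. Without Rhesus 3 the log2 fold changes between DG and CA1 were 1.08 for EHF and 1.08 for GRP, both called. Without Rhesus 6 those between DG and CA3 were 1.24 for BEST3, 1.28 for EHF and 1.14 for GRP, all called. PROX1, at 0.69 in the latter fit, was not called there. No marker of ependymal cells, fibroblasts, endothelial cells, astrocytes, microglia or pan-neuronal genes was called between sub-fields. Blood markers were below the filter, with HBA1 at 0 in DG. Of the neocortical and striatal markers, TBR1 was higher in DG than in CA1 and DRD1 lower than in both other sub-fields.

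Relatives and partners of the 10 genes are given by their counts of called genes, to be read against the 3.53% and 3.02% of all genes called in the DG contrasts and the 0.0203% called between CA1 and CA3. Of the granule cell list, 2 of 8 tested genes rose in DG against CA1, PROX1 itself and STXBP6 (1.14, SE 0.24), and none against CA3. Of the CA1 list, 5 of 7 were lower in DG than in CA1 and 6 of 7 lower than in CA3, for example FIBCD1 with -3.11 (SE 0.56) and -3.31 (SE 0.55). Of the CA2 and CA3 list, RGS14 was lower in DG than in CA3 by -1.09 (SE 0.17). None of the 3 lists had a gene called between CA1 and CA3. Of 13 adult neurogenesis genes tested, SOX11, a factor of immature neurons, was lower in DG with -1.33 (SE 0.39) against CA1 and -1.30 (SE 0.39) against CA3, and none was higher.

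Of the family lists, NEUROD6, a neuronal basic helix-loop-helix relative of NEUROG2, was lower in DG than in CA3 by -1.06 (SE 0.34), and the other 4 tested were not called. ETV1, of the ETS family of EHF, was lower in DG with -1.99 (SE 0.30) against CA1 and -1.25 (SE 0.30) against CA3. NR2F2, a nuclear receptor that works with PROX1 in lymphatic endothelium, was lower in DG than in CA1 by -1.70 (SE 0.29). Of 15 other GalNAc transferases, GALNT6 (-1.58, SE 0.28 and -1.61, SE 0.28) and GALNT9 (-1.45, SE 0.22 and -1.33, SE 0.22) were lower in DG than in CA1 and in CA3, opposite in sign to GALNT5. No gene was called among 5 of the natriuretic peptide system, 1 of the bombesin-like peptide system, 1 other bestrophin, 9 of the microfibril and elastic fibre genes and 7 germ cell and meiotic genes. The medians of the lists on the log2 scale ran from -2.35 for the CA1 list to 1.69 for choroid plexus between DG and CA1.

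PA, AMY and HG adjoin the hippocampus, and each was compared with the sum of the other 30 cortical sub-regions of the same animal, with no hippocampal sample in the fit. HSF2BP, NPPA, PROX1 and GRP passed the filter on low counts here and the other 6 did not. In PA, 2 of the 4 were called, against 1181 of 15168 genes (7.79%). In AMY 1 was called, against 1263 of 15168 (8.33%), and in HG 1, against 77 of 15168 (0.508%).

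HSF2BP had 1.94 ± 0.520 CPM in the summed cortex. In PA its samples ran from 1.49 to 14.2 CPM with a median of 3.11, a log2 fold change of 1.12 (SE 0.25, FDR 0.000558). The highest sample, Rhesus 3 with 14.2 CPM, weighed on this value, which was 0.86 and below the fold required without that animal. In HG the log2 fold change was 1.01 (SE 0.25, FDR 0.011), higher in 8 of 8 animals, and it fell under the fold required without Rhesus 2, 8 or 11, down to 0.88. In AMY it was 0.97 (SE 0.26, FDR 0.00242), just under the fold required.

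NPPA had 3.06 ± 2.46 CPM in the summed cortex and 0.742 ± 0.386 in PA (0.287 to 1.33), lower in 7 of 8 animals with a log2 fold change of -1.89 (SE 0.36, FDR 6.72e-05). In AMY it was at 5.44 ± 4.48 CPM, with 0.92 (SE 0.26, FDR 0.00448), and in HG at 3.01 ± 2.76, with -0.04 (SE 0.28). GRP was highest in AMY, with 7.24 ± 3.24 CPM (3.45 to 13.5) against 2.61 ± 0.901 in cortex, 1.51 on the log2 scale (SE 0.21, FDR 6.54e-07) and higher in 8 of 8 animals. Its differences in PA, 0.72 (SE 0.21, FDR 0.00627), and HG, 0.63 (SE 0.21, FDR 0.0682), were not called. PROX1 had lower means in PA and AMY, with -0.66 (SE 0.21) and -0.74 (SE 0.22), neither called for its fold. The 6 genes under the filter had at most 7 counts in any PA, AMY or HG sample, except GALNT5 with 4 to 27 counts in PA (1.00 ± 0.650 CPM) and at most 4 elsewhere.

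In PA, 7 of 9 fibroblast markers tested were higher than in the cortex, and 2 of 7 oligodendrocyte markers were lower. GFAP was the 1 gene called of 7 astrocyte markers, and CSF1R the 1 called of 2 microglia markers tested, both higher in PA. Of 6 ependymal markers SPAG6 was lower in PA, and of 8 neocortical and striatal markers DRD2 was higher and RORB, CUX2 and DRD1 lower. In AMY 1 fibroblast marker was higher and 1 lower, FOXJ1 was higher and SPAG6 lower, and of 9 pan-neuronal genes SLC17A6 was higher. Of the neocortical and striatal markers, FEZF2 and DRD2 were higher in AMY, and RORB, CUX2, TBR1 and TCF7L2 lower. None of these markers was called in HG. Their part in the differences of these 4 genes was not tested. Of 13 adult neurogenesis genes tested, SOX11, TFAP2C and BHLHE22 were higher in PA, and these and DPYSL3 in AMY. Of 9 microfibril and elastic fibre genes, MFAP4, FBN2, ELN and LTBP2 were higher in PA, where MFAP5 had at most 2 counts in a sample. Of 5 natriuretic peptide genes, NPPC and NPR1 were lower in PA, as NPPA was. In the other 2 regions NPR1 and NPPA did not go together. NPR1 was lower in AMY, where NPPA had 5.44 CPM against 3.06 in the summed cortex. It was higher in HG, where NPPA had 3.01 CPM.

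**Figure D4:**
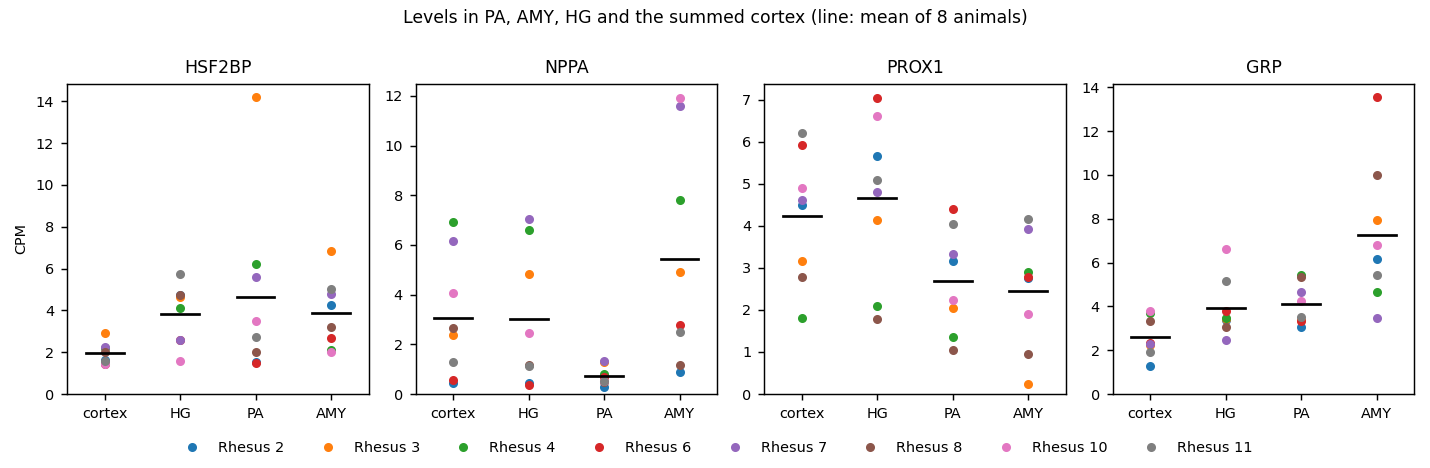
CPM (vertical axis) of the 4 genes that passed the filter, in the sum of 30 cortical sub-regions and in HG, PA and AMY (horizontal axis). Each point is 1 animal, coloured as in the key, and the line is the mean of 8 animals. GRP is highest in AMY, NPPA is lowest in PA, and 1 PA sample of HSF2BP (Rhesus 3, 14.2 CPM) lies far above the other 7.

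Age and sex were compared in the summed hippocampus and in DG alone, with a call at FDR < 0.1 and more than a 2-fold difference. None of the 10 genes was called in any of these 4 comparisons. Between mid-aged and young animals edgeR called 0 of 16196 genes in the hippocampus (0%; 1058 at an unadjusted p under 0.05, and 21 called by DESeq2) and 0 of 14583 in DG (0%; 1409 at an unadjusted p under 0.05, and 37 called by DESeq2). Between females and males it called 16 of 16196 (0.0988%) and 16 of 14583 (0.11%). The log2 fold changes with age in the hippocampus ran from -0.59 for BEST3 (SE 0.37) to 0.43 for MFAP5 (SE 0.51). GRP had the smallest unadjusted p of the 10, with -0.31 (SE 0.14, FDR 0.753). In DG they ran from -0.63 for NPPA (SE 0.70) to 0.94 for MFAP5 (SE 0.59).

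The age difference of PROX1 in DG moved with single animals. It was 0.42 (SE 0.49, FDR 0.779) with all 8, 0.014 (SE 0.45) without Rhesus 4 and 1.08 (SE 0.28, FDR 0.0752), and called, without Rhesus 7, a young animal whose DG sample had the highest PROX1 level of the 8 (67.1 CPM). In that fit 405 genes were called. MFAP5 had the largest sex difference, lower in females in DG by -1.38 (SE 0.60, FDR 1), with the low sample of the female Rhesus 4 included. It was -0.96 without Rhesus 4 and -2.10 without Rhesus 10. DAZL differed by -0.20 (SE 0.37) between females and males in the hippocampus. For GALNT5 the SE reached 1.07, more than a 2-fold difference on the log2 scale.

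Over the 51 sub-regions, the genes fell into more and less alike profiles. The correlations are given as a description of sub-region means, which share the same 8 animals, and have no p. MFAP5, BEST3, DAZL, EHF and NEUROG2 correlated with each other at 0.76 (EHF and NEUROG2) to 0.94 (MFAP5 and BEST3). Over the 48 sub-regions outside the hippocampus the same pairs lay between -0.26 (BEST3 and DAZL) and 0.45 (BEST3 and EHF), so their likeness rested on DG, CA1 and CA3. HSF2BP and GRP correlated at 0.83 over 51 sub-regions and at 0.88 over the 48 outside the hippocampus. NEUROG2 and PROX1 had 0.70 and 0.66, and GALNT5 and PROX1, both high in CC, 0.48 and 0.49.

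**Figure D5:**
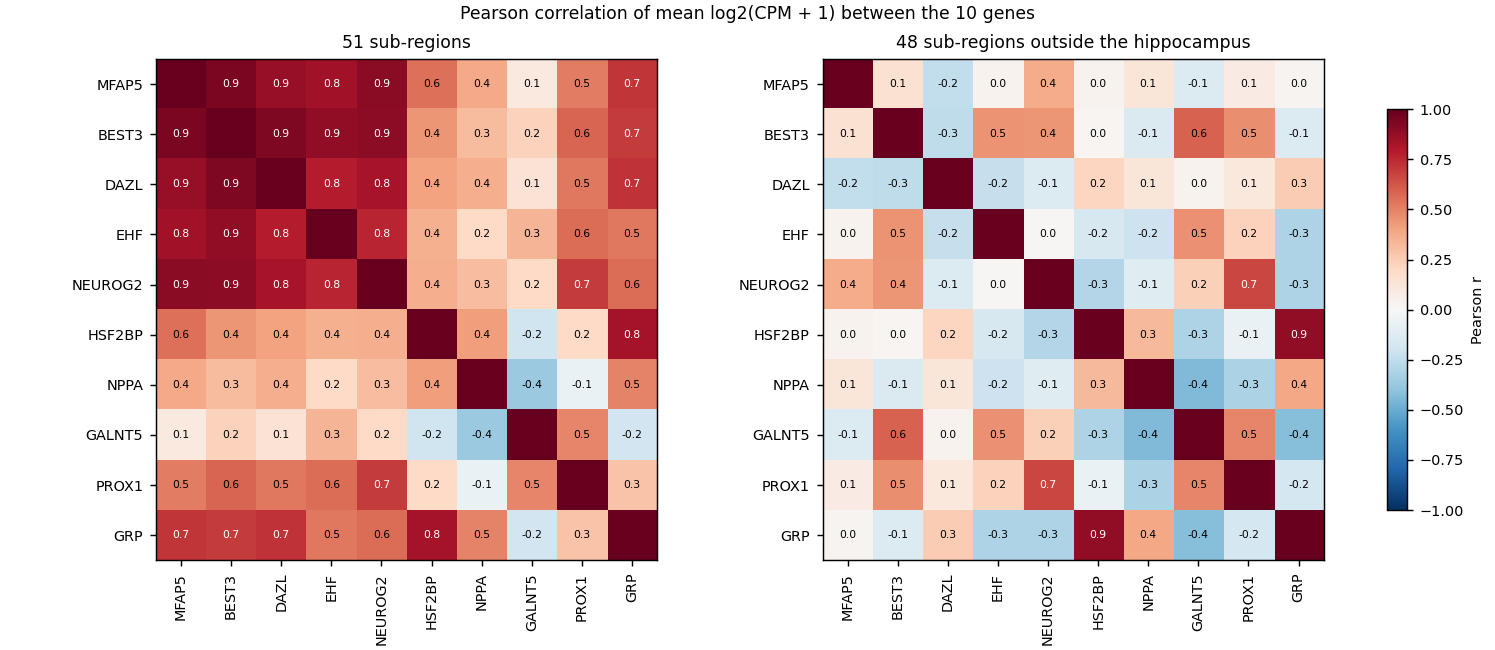
Pearson correlation between each pair of the 10 genes (both axes) of mean log2(CPM + 1), over 51 sub-regions on the left and over the 48 outside the hippocampus on the right, with rounded r printed off the diagonal and red for positive values. The block of MFAP5, BEST3, DAZL, EHF and NEUROG2 (0.76 to 0.94 on the left) fades on the right, while HSF2BP and GRP keep 0.88.

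Among 13115 genes with a symbol and a mean of at least 1 CPM in some sub-region, IL7, the cytokine interleukin 7, was among the 3 most alike genes of 4 members, with r of 0.97 for MFAP5, 0.94 for BEST3, 0.91 for NEUROG2 and 0.88 for EHF. Over the 48 sub-regions outside the hippocampus these correlations of IL7 were 0.40, 0.46, 0.42 and 0.43, and as Spearman correlations over 51 they were 0.52, 0.59, 0.64 and 0.59. Its means were 1.19 CPM in DG, 1.18 in CA1 and 1.01 in CA3. FAM216B was among the 3 of MFAP5 (0.94), BEST3 (0.96) and NEUROG2 (0.86), with 7.02, 3.85 and 2.96 CPM in DG, CA1 and CA3. SLC22A16, a carnitine transporter, was among those of BEST3 (0.97) and DAZL (0.90). MALRD1 (0.90) completed the list of MFAP5, LRRC72 (0.94) and LCK (0.92) that of DAZL, SBSPON (0.91) and EVC (0.89) that of EHF, and CHRNB4 (0.85), a nicotinic receptor subunit, that of NEUROG2. Outside the hippocampus FAM216B had 0.12 with MFAP5, 0.46 with BEST3 and 0.17 with NEUROG2, and LCK had 0.025 with DAZL. For MFAP5, BEST3, DAZL, EHF and NEUROG2, 0 of the 3 genes stayed among the 3 most alike either over these 48 sub-regions or by Spearman correlation, so their likeness rested on the high values in the hippocampus for which the members were chosen.

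Different genes were most like the other members. HSF2BP was most like SERPINB13 (0.82), PTPRA (0.80) and ZCCHC17 (0.80), and PLPPR2 (0.86) and CLSPN (0.85) were among the 3 genes most like GRP. NPPA was most like TFAP2C (0.85), SEMA5B (0.78) and ADAMTS3 (0.78), PROX1 most like ALDH3A2 (0.90), MYRFL (0.81) and VASH1 (0.79), and GALNT5 most like RMC1 (0.90), CDK4 (0.90) and SEC14L4 (0.90). Over the 48 sub-regions outside the hippocampus the correlations of all 30 pairs of a member and an alike gene ran from -0.21 (DAZL and SLC22A16) to 0.92 (GALNT5 and RMC1).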

How the data were processed

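RNA-seq libraries were made with a directional kit after ribosomal RNA removal. The authors trimmed libraries of poor read quality (Trim Galore 0.4.4 in the submitters' processing notes), mapped reads to Mmul 8.0.1 with HISAT2 2.0.5 and counted them on Ensembl genes with HTSeq 0.6.1. What they deposited is the raw count of reads for each gene in each library. How the counting treated strand and overlapping genes is not given in the sources used here. A table of gene names gave symbols to 17572 of the 30807 IDs, and overlapping genes were found in RefSeq (T2T-MMU8v2.0), a different assembly from which no coordinates were taken. No 2 samples held identical counts.

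Tests used edgeR 4.0.16 in R 4.3.3: TMM scaling, filterByExpr and the quasi-likelihood F test, with p-values adjusted by Benjamini and Hochberg's method across every gene that passed the filter (FDR). The SE of a log2 fold change is its absolute value over the square root of its F. Sub-fields and neighbouring regions were fitted with the animal as a block, and age stage and sex each with the other as a covariate. The pairing comes from the animal number in the labels. Deviations of same-numbered DG and CA1 samples from their group means correlated at 0.249 to 0.767 over 14917 genes, those of DG and CA3 at 0.166 to 0.787 and those of CA1 and CA3 at 0.152 to 0.767. The same-numbered sample was the best match in 8 of 8 animals for DG and CA1. It was so in 6 of 8 for DG and CA3 and in 5 of 8 for CA1 and CA3. Region groups were summed within each animal, and the cortex likewise. The members and gene lists were chosen with earlier results of these data known. Genes named beside the members are mainly the 3 most alike genes and list genes called between sub-fields. Likeness is the Pearson correlation of mean log2(CPM + 1), a pseudocount of 1. Some, but not all, of the list genes called in PA, AMY or HG are named too. One of the alike genes is not reported here. Alternatives were DESeq2 1.42.0, its size factors in edgeR, a detection filter (a count above 1 in at least 3 samples), fits with no replicate block, fits with no covariate, fits that left out an animal, CPM without TMM, and for likeness a pseudocount of 0.1, Spearman correlation and 48 sub-regions. On simulated data with 200 genes changed 4-fold, 99% were recovered for DG against CA1 (14836 genes), 99% for PA against cortex (15028 genes) and 96.5% for age in the hippocampus (16228 genes). False calls numbered 3, 0 and 11. The simulation gave every gene the same dispersion of 0.1. These shares therefore do not give the power for genes that vary more between animals. The 33 ATAC-seq samples, the 8 midbrain samples and the authors' assembled transcripts were not analysed here.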

Additional observations from a re-analysis of the deposited data

Results flagged for a closer look

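In 57 groups of 8 animals (the 10 genes in DG, CA1, CA3, PA, AMY, HG and their highest sub-region elsewhere, where a sample had more than 3 counts), the highest or lowest sample was compared with the range of its group. In 5 groups the highest sample had a gap to the next above Dixon's 95% critical value for 8 samples. By chance that value flags about 1 in 20 groups of independent, normally distributed values. CPM was used here without logs, and the groups share the same 8 animals. The share flagged by chance may therefore differ, and the 5 are not read as an excess. DAZL in DG was 8.22 CPM in Rhesus 3, the next sample being at 4.79. HSF2BP in PA was 14.2 CPM in Rhesus 3, the next being at 6.20. EHF in PON was 8.23 CPM in Rhesus 7, the next being at 2.77. MFAP5 in CBC was 2.15 CPM in Rhesus 3, the next being at 0.892. GALNT5 in PA was 2.37 CPM in Rhesus 11, the next being at 1.32. The cause was not tested.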

How the results depend on the processing

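Of the 17 calls of members (a gene in a contrast), DESeq2 and its size factors in edgeR kept 17, the detection filter 16 and the fit with no replicate block 13. With no replicate block 6 members were called for DG against CA1, 5 for DG against CA3, 0 for CA1 against CA3 (1 gene in all), 2 for AMY and 0 for HG. All genes called in these fits numbered 457 and 384 of 14796 for DG against CA1 and CA3. For AMY and HG they numbered 1243 and 53 of 15168. The calls lost were those of GALNT5 in both DG contrasts and of HSF2BP between CA1 and CA3 (FDR 0.0514) and in HG (FDR 0.150), and the block changed no other call but to leave out PROX1 between DG and CA3 and HSF2BP in AMY. The detection filter, which tests more genes, called 5 of 19361 genes between CA1 and CA3. Of 24000 genes it called 2162 in PA (4 of 10 members), 2369 in AMY (5 of 10) and 148 in HG (0 of 10). It made 114, 50 and 15 of the 19361 genes DG, CA1 and CA3 genes. DESeq2 called 19 genes and 2 members between CA1 and CA3, and with age 21 genes in the hippocampus and 37 in DG, where the fit with no covariate called 1. Values near 0 turned sign: MFAP5 between DG and CA3 was 0.018 and GALNT5 between CA1 and CA3 was 0.030 under DESeq2, and GRP between CA1 and CA3 was -0.010 with no replicate block.

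Leaving out 1 animal at a time, 0 (without Rhesus 7) to 24 (without Rhesus 11) genes and 0 to 2 members were called between CA1 and CA3, 1 (without Rhesus 3) to 2 members in PA, 1 to 3 (without Rhesus 4 or 8) in AMY and 0 (without Rhesus 2, 8 or 11) to 1 in HG. Over these fits 1176 to 1228 genes were called in PA, 1255 to 1321 in AMY and 63 to 91 in HG. DG genes numbered 46 (without Rhesus 6) to 115 (without Rhesus 2), CA1 genes 16 to 40 and CA3 genes 7 to 15, both highest without Rhesus 11. With age 0 to 1 genes were called in the hippocampus, and 0 to 405 genes and 0 to 1 members in DG (highest without Rhesus 7). Log2 fold changes ran from -0.25 to 0.18 for MFAP5 between DG and CA3, from -0.032 to 0.40 for EHF, from -0.40 to 0.42 for GALNT5 and from -0.13 to 0.17 for GRP between CA1 and CA3, and from -0.24 to 0.12 for NPPA in HG. The cause was not tested. Levels without TMM moved by less than 1 SD. Genes at a few counts, such as GALNT5 and the 6 genes under the filter outside the hippocampus, are limited by depth.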
